A study of Mus musculus with 8 samples.

Results

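The interval between Sox9 and the right edge of its contact domain was examined in capture Hi-C maps of mouse limb buds. It was taken as chromosome 11, 112660001 to 113030000 (mm9), a stretch of 370 kb or 37 bins of 10 kb that begins 20 kb to the right of the bin holding Sox9. Its members were all pairs of these bins at least 20 kb apart, chosen by position alone. They numbered 630 of the 171405 bin pairs of the whole map, which ran from 109010001 to 114880000 in 587 bins. In capture Hi-C, crosslinked and ligated DNA fragments of a chosen region are enriched, and each sequenced read pair counts 1 contact between the places of its ends.

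There were 8 libraries, 1 per genotype, all from fore- and hindlimb buds of E12.5 embryos that were homozygous for the edit and had the background G4 ESC, an embryonic stem cell line. The limb buds of several embryos were pooled for each library, so each value is an average over all limb bud cells. The genotypes named in the labels were ∆BorC1, ∆BorC1-2, ∆BorC1-4 and ∆CTCF, called the deletion libraries here, and BorKnockIn, InvC, InvIntra and InvC∆Bor. The labels name the alleles and do not describe them further. Wildtype limb buds were not analysed here, so no value below is a change from the unedited locus. By coverage and insulation of the deposited maps, the bin of the boundary between Kcnj2 and Sox9 was nearly empty in the deletion libraries and kept in InvIntra. InvC carried it close to the left of Sox9, InvC∆Bor had the order of InvC without it, and BorKnockIn had an insulated position at a like distance from Sox9. None of the edits lies in the interval. In BorKnockIn the same sequence sits about 1 bin further left in the deposited coordinates, and its map was read with that shift of 1 bin throughout.

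A topologically associating domain is a stretch of chromatin whose places contact each other more often than places outside it. Its edges often hold bound CTCF, a DNA-binding protein that halts the loop-extruding cohesin ring, and a strong contact between the edges appears as a bright corner of the domain in a map. Sox9 is a transcription factor without which cartilage does not form, and its regulatory sequences lie in the large gene-poor stretch around it. In the RefSeq gene order (assembly GRCm38) 9 gene models lie between Sox9 and the next protein-coding gene, Slc39a11, which encodes a zinc transporter. All 9 are long noncoding RNAs, Gm11681 being nearest to Sox9. Which of them lie in the interval was not determined, because that assembly is not the build of the maps.

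The libraries held 3056502 (InvC∆Bor) to 9045698 (∆BorC1-4) raw contacts, of which 75056 to 225610 fell in the interval. A single member bin pair held at least 31 contacts in every library, and the median pair 92 to 275. Since each genotype had 1 library, no test was made. Every interval given with a value is a 95% interval that covers counting error only. To show how far libraries differ where nothing was edited, the same measures were taken in 8 windows of the same size in the flanks, 4 on each side, at least 2.1 Mb to the left or 300 kb to the right of the interval. Their range is not replicate error.

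Internal density is the mean, over the 630 member pairs, of the balanced contact value divided by the mean of all pairs at the same distance in the same library. A density of 1 is the average of the map. Among the deletion libraries ∆BorC1 had 1.17 (1.16 to 1.18), ∆BorC1-2 had 1.21 (1.21 to 1.22), ∆BorC1-4 had 1.21 (1.20 to 1.21) and ∆CTCF had 1.21 (1.20 to 1.22). It was 1.22 (1.22 to 1.23) in InvIntra and 1.23 (1.22 to 1.25) in InvC∆Bor. It was 1.27 (1.27 to 1.28) in BorKnockIn and 1.32 (1.31 to 1.33) in InvC. Members therefore contacted each other more often than the map's average in all 8 libraries, and the libraries with a boundary close to Sox9 stood at the top. The flank windows had median densities of 0.692 to 1.59, so a density above 1 was not particular to the interval. From the lowest to the highest library the interval's density spanned 1.13-fold, and that of the flank windows 1.02-fold to 1.07-fold.

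The share of each library's raw contacts that fell on member pairs gave a partly different order. It was 2.32% in ∆BorC1, 2.36% in BorKnockIn, 2.40% in ∆BorC1-2, 2.46% in InvC∆Bor, 2.48% in ∆CTCF, 2.49% in ∆BorC1-4, 2.56% in InvIntra and 2.85% (2.84 to 2.87) in InvC. InvC was again the highest, while BorKnockIn was next to the lowest. The highest share was 1.23-fold the lowest, against 1.13-fold to 1.24-fold in the flank windows. By raw counts over distance expectation, density was highest in InvC (1.87), and BorKnockIn (1.69) was not near the top. It lay above ∆BorC1 (1.64) and ∆CTCF (1.65) but below ∆BorC1-2 and ∆BorC1-4 (1.70 in both), InvC∆Bor (1.73) and InvIntra (1.73). The place of BorKnockIn near the top in density thus held for balanced values only.

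**Figure D1:**
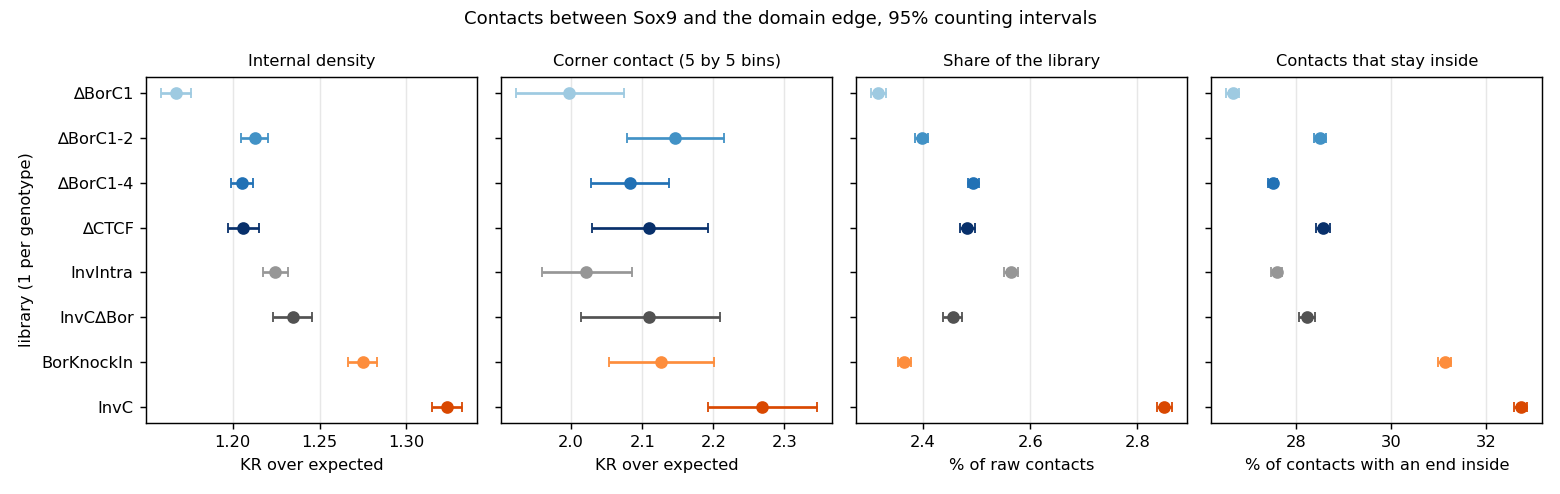
Internal density, corner contact, share of the library's raw contacts and share of the interval's contacts that stay inside, in each of the 8 libraries (points, with 95% counting intervals; the axes do not start at 0). BorKnockIn and InvC are the highest in density (1.27 and 1.32) and in the share that stays inside (31.1% and 32.7%), while in the share of the library BorKnockIn lies at 2.36% and InvC at 2.85%.

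The excess of contacts lay at long distance. For members 20 to 90 kb apart density was 0.989 to 1.10 over the libraries, for those 100 to 190 kb apart 1.13 to 1.29, and for those 200 to 360 kb apart 1.52 to 1.74. Short-range contacts were thus at about the map's average, and the far ones above it, in each library. Of the 630 pairs, 443 (∆BorC1) to 569 (InvC) were above expectation in a single library, with 529 in BorKnockIn and 456 to 505 in the others. In all 8 libraries, 316 pairs were above expectation and 31 below it, and 283 were mixed. The pairs below it in every library were 20 to 120 kb apart.

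The far corner of the interval, the first 5 by the last 5 bins, joins the stretch nearest to Sox9 with the stretch at the domain edge. For corner contact over expectation ∆BorC1 had 2.00 (1.92 to 2.07), ∆BorC1-2 had 2.15 (2.08 to 2.22), ∆BorC1-4 had 2.08 (2.03 to 2.14) and ∆CTCF had 2.11 (2.03 to 2.19). It was 2.02 (1.96 to 2.09) in InvIntra, 2.11 (2.01 to 2.21) in InvC∆Bor, 2.13 (2.05 to 2.20) in BorKnockIn and 2.27 (2.19 to 2.35) in InvC. The corner held 1816 to 5475 raw contacts. Most of these intervals overlapped. That of InvC lay above those of ∆BorC1, ∆BorC1-4 and InvIntra and just above that of ∆CTCF. That of ∆BorC1-2 began just above the end of that of ∆BorC1. The highest over the lowest library was 1.14, within the 1.08 to 1.25 of the flank windows. The flank window with the strongest corner had a median of 3.08 (range over libraries 2.85 to 3.13), and the others had medians of 0.514 to 1.58. A corner this far above expectation was thus not particular to the interval.

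The brightest spot of the corner was at nearly the same place in every library. Among squares of 3 by 3 bins, the one with the highest value was centred on the bin at 112.67 Mb on the left in all 8 libraries. On the right it was centred on 113.01 Mb in ∆BorC1 and ∆BorC1-2 and on 113.00 Mb in the other 6. Its value was 2.27 in InvIntra, 2.29 in ∆BorC1, 2.31 in ∆BorC1-4, 2.32 in InvC∆Bor, 2.35 in BorKnockIn, 2.43 in ∆CTCF, 2.48 in ∆BorC1-2 and 2.54 in InvC. This spot lies 330 or 340 kb across, near both ends of the interval. Single pairs above 2 in every library numbered 8, and all 8 were in the corner. They joined the bins at 112.66 and 112.67 Mb with bins from 112.98 to 113.02 Mb.

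Blocks of 30 kb (40 kb at the right end) gave 78 block pairs. Within itself a 30 kb block holds a single bin pair, because closer pairs were left out. All 36 that were at least 100 kb apart had a median over libraries above expectation. The 5 highest of them all joined the 60 kb nearest to Sox9 with the right part. The block at 112.66 Mb with that at 112.99 Mb had a median of 2.26 (range over libraries 2.18 to 2.49), with that at 112.96 Mb 2.07 (1.91 to 2.22) and with that at 112.93 Mb 1.84 (1.66 to 1.96). The block at 112.69 Mb with those at 112.99 and 112.96 Mb had 1.76 (1.68 to 1.90) and 1.72 (1.53 to 1.92). The leftmost block's median rose step by step with each block further away, from 0.79 within itself to 2.26 at the far end. The rightmost block started lower, with 0.65 within itself and 0.79 with its neighbour, where the leftmost had 0.93 with its neighbour. It also rose towards the far end, though not at every step, falling from 1.13 with 112.87 Mb to 1.06 with 112.84 Mb. The 5 lowest block pairs at least 100 kb apart lay between 112.78 and 113.03 Mb, with medians of 1.06 to 1.11, the lowest joining 112.84 with 112.99 Mb (range 1.02 to 1.14).

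**Figure D2:**
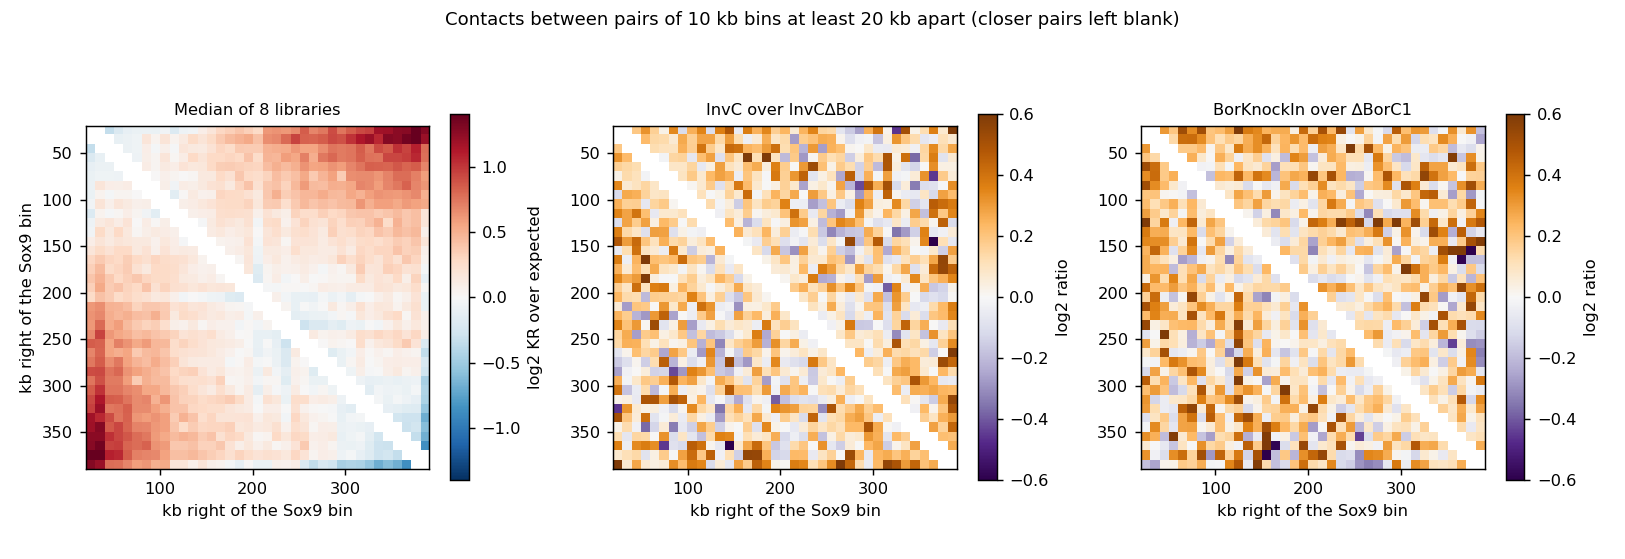
Left, log2 of contact over expectation for the 630 member pairs, median of 8 libraries; middle and right, log2 ratios of InvC over InvC∆Bor and of BorKnockIn over ∆BorC1; both axes in kb to the right of the Sox9 bin. Contact is highest in the far corner and low beside the diagonal at the right end; the ratio maps are mostly above 0 (65 and 73 of 78 blocks have a ratio above 1) without a single strong patch.

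Bins at the Sox9 end had the highest mean contact with the rest of the interval. Bins near either end have farther partners, and contact over expectation rose with distance in this interval. The mean was not adjusted for this. The mean over all partners was highest at 112.67 Mb, with 1.54 in ∆BorC1, 1.61 in ∆BorC1-2 and ∆BorC1-4, 1.63 in ∆CTCF and InvIntra, 1.64 in InvC∆Bor, 1.73 in BorKnockIn and 1.75 in InvC. The bins at 112.66 Mb and 112.69 Mb followed, with medians of 1.499 (range 1.37 to 1.67) and 1.41 (1.36 to 1.55). The 3 lowest bins were at 112.84 Mb (median 1.05, range 1.02 to 1.11), 113.02 Mb (1.09, 1.06 to 1.25) and 112.87 Mb (1.10, 1.06 to 1.19). InvC exceeded the 6 libraries other than BorKnockIn at all 37 bins, and BorKnockIn exceeded the same 6 at 26. ∆BorC1 was the lowest library at 31 of 37 bins.

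Sub-domains were looked for with an insulation score, the log2 ratio of the mean balanced value between the 50 kb on each side of a position to the mean of that value over the map, so that low scores mark few contacts across. At the 28 positions whose window lay wholly inside, scores ran from a median of 0.18 at 112.79 Mb to -0.22 at 112.98 Mb. The lowest inner position was 112.98 Mb in all 8 libraries, with -0.23 in ∆BorC1, ∆CTCF and InvC∆Bor, -0.22 in ∆BorC1-2 and ∆BorC1-4, -0.19 in InvIntra, -0.11 in BorKnockIn and -0.08 in InvC. It lies 50 kb from the domain edge, at the last inner position, and the score fell on from there to between -1.68 and -1.36 at 113.03 Mb. With a 100 kb window, or with raw counts, the lowest inner position was 112.88 Mb, and with a 30 kb window 113.00 Mb.

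Further inside, 112.84 and 112.88 Mb were each lower than the 20 kb on both sides in all 8 libraries. At 112.88 Mb the score was -0.18 in ∆CTCF, -0.16 in ∆BorC1, -0.15 in ∆BorC1-2, -0.13 in ∆BorC1-4, -0.08 in BorKnockIn, InvIntra and InvC∆Bor, and -0.01 in InvC. These dips were shallow beside the ends of the interval. The whole inner range of a library was 0.32 to 0.45, while flank positions ran from -1.07 to 0.99 in their medians. Over the libraries an inner position varied by a median of 0.16, and a flank position by 0.12.

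Contacts between the stretches left and right of 112.88 Mb were set against those within them. After distance expectation, between over within ran from 1.21 in BorKnockIn and ∆BorC1 to 1.27 in InvC∆Bor. At 112.98 Mb it was 1.06 to 1.12. Pairs between stretches lie farther apart on average, and contact over expectation rose with distance in this interval. A ratio above 1 therefore cannot decide whether a sub-domain edge lies at these positions. Values for fixed parts carry the same limit. The left part (12 bins from 112.66 Mb) had a median of 1.01 within itself, the middle part (12 bins from 112.78 Mb) 1.04 and the right part (13 bins from 112.90 Mb) 0.917. Left with right reached 1.59 (range 1.495 to 1.71), left with middle 1.25 (1.19 to 1.37) and middle with right 1.09 (1.05 to 1.17). The highest contact was thus between the 2 outer parts, which are also the farthest apart. The range of left with right did not overlap that of any other pair of parts.

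**Figure D3:**
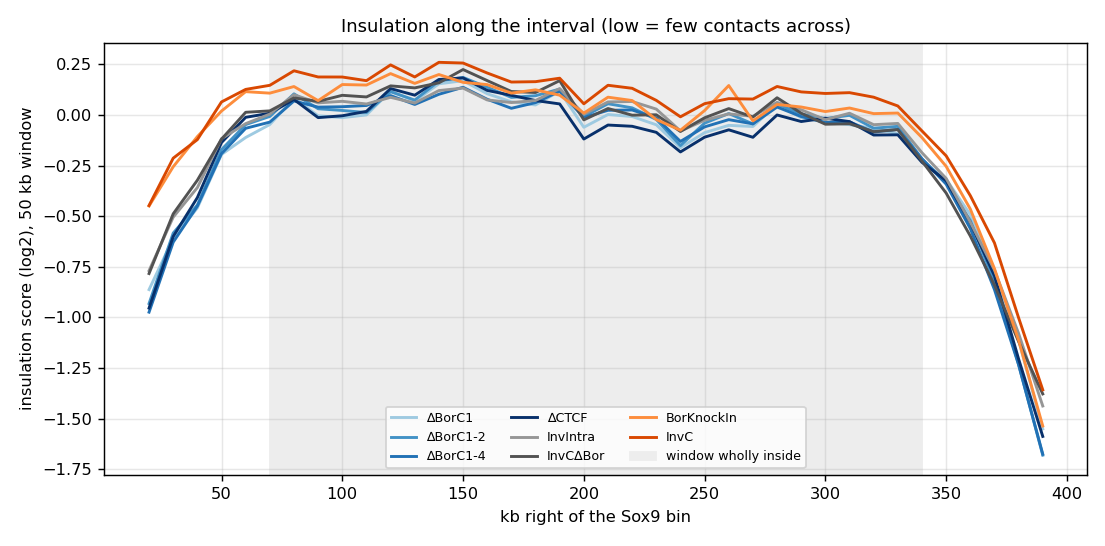
Insulation score (log2, 50 kb window) at each position along the interval, in kb to the right of the Sox9 bin, 1 line per library; grey marks positions whose window lies wholly inside. All 8 lines stay close to 0 inside, with small dips shared by all libraries, and drop at both ends, least at the left end in BorKnockIn and InvC (-0.45 in both).

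At the left end, 112.66 Mb, the window reaches out of the interval across the Sox9 bin. The score there was -0.97 in ∆BorC1-4, -0.95 in ∆CTCF, -0.93 in ∆BorC1-2, -0.86 in ∆BorC1, -0.78 in InvC∆Bor and -0.77 in InvIntra. It was -0.45 in BorKnockIn and InvC. The 2 libraries with a boundary close to Sox9 thus had more contacts over this end than the other 6. The sequence just left of Sox9 also differs between libraries, and its part in this score was not tested.

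The first question of the design was what loss of the boundary between Kcnj2 and Sox9 does to the domain. The deletion libraries were set against InvIntra, which held the boundary, although its sequence between boundary and Sox9 is in reversed order. The median density of the 4 was 0.985 of that in InvIntra. For ∆BorC1-2 the ratio was 0.990 (0.982 to 0.999), for ∆BorC1-4 0.984 (0.977 to 0.992) and for ∆CTCF 0.985 (0.976 to 0.995). These 3 lay inside the range of the flank windows for the same libraries. For ∆BorC1 it was 0.953 (0.945 to 0.962), below the flank range of 0.977 to 1.02. With raw counts the ratio was 0.947 for ∆BorC1 and 0.978 for ∆BorC1-2, both below their flank ranges (from 0.948 and 0.986), and inside for the other 2. The 4 corner ratios were 0.988 to 1.06, inside the flank ranges. In the share of the library the ratios were 0.904 to 0.973, and only that of ∆BorC1-4, 0.973, lay outside its flank range, of 0.975 to 1.05.

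Single bin pairs were called where contact over expectation differed by more than 1.5-fold, with at least 20 raw contacts in both libraries. No member pair was called in either direction in ∆BorC1, ∆BorC1-2 or ∆BorC1-4 against InvIntra. Over all bin pairs of the map at the same distances, 4.81% were higher and 2.65% lower in ∆BorC1, 4.33% and 3.46% in ∆BorC1-2, and 3.82% and 2.84% in ∆BorC1-4. In ∆CTCF 1 member pair was higher and 1 lower, against 4.91% and 3.96% of the map. Those map values include the edited interval. In the flanks alone, 0.979% to 2.35% of pairs were higher and 1.21% to 2.19% lower in these 4 comparisons. The members' counts were thus below both backgrounds. Calls past a fold also depend on the contacts per pair. Background pairs needed only 20, while every member pair held at least 31 in each library. The backgrounds were not matched for this, so the lower rate does not show that the interval was steadier.

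Among the deletion libraries the members differed little. From ∆BorC1 to ∆BorC1-2 the density ratio was 1.04 (1.03 to 1.05), above the flank range of 0.993 to 1.03. From ∆BorC1-2 to ∆BorC1-4 it was 0.994 (0.986 to 1.00) and from ∆BorC1-4 to ∆CTCF 1.00 (0.992 to 1.01), both inside. With raw counts the density ratio from ∆BorC1 to ∆BorC1-2 was 1.03, inside its flank range of 0.991 to 1.08. Apart from the low value of ∆BorC1, the deletion libraries stood at nearly the same density.

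The second question was what a boundary next to Sox9 does to the contacts on the far side of the gene. InvC∆Bor has the same inverted order as InvC and lacks the boundary. The density of InvC was 1.07 (1.06 to 1.08) of that of InvC∆Bor, above the flank range of 0.975 to 1.01. The corner ratio was 1.08 (1.01 to 1.14) against a flank range of 0.912 to 1.07, and the ratio of the shares was 1.16 (1.15 to 1.17) against 1.01 to 1.11. All 3 ratios were above their flank ranges for these 2 libraries. That of the corner was only just above, and its counting interval reached into the flank range. Against InvIntra, InvC had a density ratio of 1.08 (1.07 to 1.09, flank 0.953 to 1.02), while InvC∆Bor had 1.01 (0.997 to 1.02), inside its flank range. The corner ratio of InvC to InvIntra was 1.12 (1.07 to 1.18), inside its flank range of 0.822 to 1.13. The ratio of their shares was 1.11 (1.10 to 1.12), above the flank range of 0.988 to 1.08. These ratios share libraries and are not independent. In density InvC∆Bor, which has no boundary next to Sox9, was itself 1.06 (1.05 to 1.07) of ∆BorC1, above the flank range of 0.975 to 1.02. With raw counts this density ratio was 1.05, inside its flank range of 0.931 to 1.11.

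BorKnockIn, which by coverage also lacks the boundary at its original site, was compared with ∆BorC1. Its density was 1.09 (1.08 to 1.10) of that of ∆BorC1, above the flank range of 0.955 to 1.02. ∆BorC1 is the lowest library, and against ∆BorC1-2, ∆BorC1-4 and ∆CTCF the ratio was 1.05, 1.06 and 1.06, above the flank range in each case. Raw counts gave 0.995, 0.995 and 1.02 for these 3, so the excess over ∆BorC1-2 and ∆BorC1-4 was seen with balanced values only. Against InvIntra it was 1.04 (1.03 to 1.05), just inside the flank range of 0.933 to 1.04. With raw counts in place of balanced values the ratio to ∆BorC1 was 1.03, and the ratio to InvIntra was 0.973. The corner ratio to ∆BorC1 was 1.06 (1.01 to 1.12), inside the flank range of 0.851 to 1.07. It fell to 0.974 with raw counts, to 0.989 with a corner of 3 by 3 bins and to 0.874 without the shift of 1 bin, so no direction is given for the corner. The share of the library was 1.02 (1.01 to 1.03) of that in ∆BorC1, with a flank range of 0.964 to 1.02. It was barely past the top of that range (1.0206 against 1.0205), and 0.983 without the shift.

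The differences were spread over the interval rather than held by a few pairs. In InvC over InvC∆Bor, 65 of 78 blocks had a ratio above 1 with a median of 1.07, and 31 had a counting interval wholly above 1 and 0 wholly below. In BorKnockIn over ∆BorC1 these numbers were 73, a median of 1.08, 48 and 0. In ∆BorC1 over InvIntra 65 of 78 were below 1, with a median of 0.959. No block passed 1.5-fold in these 3 comparisons. Blocks with an end in the first 60 kb had a median ratio of 1.10 and the others 1.06 in InvC over InvC∆Bor, and 1.13 against 1.07 in BorKnockIn over ∆BorC1. In BorKnockIn the raw coverage of bins in these first 60 kb differed from the other libraries after the shift, and its part was not tested.

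The highest block ratio in InvC over InvC∆Bor joined 112.72 with 112.93 Mb, where InvC had 1.58 and InvC∆Bor 1.33 over expectation, or 1.19-fold (1.08 to 1.31). It was followed by 112.66 with 112.78 Mb at 1.18 (1.08 to 1.30) and by the block at 112.90 Mb within itself at 1.18 (1.06 to 1.31). The lowest was 112.75 with 112.87 Mb at 0.962 (0.877 to 1.05). In BorKnockIn over ∆BorC1 the 3 highest all held the block nearest to Sox9. It reached 1.24 (1.11 to 1.38) within itself, 1.23 (1.17 to 1.29) with 112.69 Mb and 1.22 (1.13 to 1.33) with 112.84 Mb. Raw coverage in this block differed after the shift. At 112.66 Mb it was 1.42 of the map's mean in BorKnockIn and 1.23 to 1.28 in the others, and at 112.67 Mb 1.08 against 1.22 to 1.27. The part of coverage in these 3 ratios was not tested. The lowest was the block at 112.78 Mb within itself, 0.970 (0.868 to 1.08). Each ratio given for a block within itself rests on a single bin pair. In ∆BorC1 over InvIntra the highest was 112.87 with 112.99 Mb at 1.08 (0.996 to 1.17) and the lowest 112.78 with 112.96 Mb at 0.869 (0.798 to 0.946).

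Past 1.5-fold, 10 member pairs were higher and 2 lower in BorKnockIn than in ∆BorC1, where 4.39% and 5.79% of the map and 1.11% and 2.84% of the flank pairs were called. The 10 are 1.59% of the members, between the 2 backgrounds. With raw counts 14 members were higher, or 2.22%. By the same measure 2.25% of the flanks and 8.35% of the map were higher, so that share was below both, though barely below the flanks. Of the 10 called with balanced values, 4 share the bin at 112.76 Mb, where BorKnockIn had a mean contact of 1.30 and the other libraries 1.07 to 1.24. Raw coverage of that bin was 1.05 of the map's mean in BorKnockIn and 1.39 to 1.48 in the others, and at 112.75 Mb it was 1.96 against 1.71 to 1.80. Coverage thus differed at these bins after the shift, and its part in these 4 calls was not tested. In InvC over InvC∆Bor 4 member pairs were higher and 1 lower, against 2.69% and 4.51% of the map and 1.31% and 3.31% of the flanks. The 4 are 0.635% of the members, below both. With raw counts 11 members were higher, or 1.75%, against 1.501% of the flanks and 2.95% of the map by the same measure, so the place of this share among the backgrounds depends on the values used. One of the 4 joins the outermost bins at 112.66 and 113.02 Mb, at 2.83 in InvC with 151 contacts and 1.85 in InvC∆Bor with 54. By balanced values, differences in density thus came with few large changes of single pairs. The backgrounds in these comparisons were also not matched to the members for contacts per pair.

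**Figure D4:**
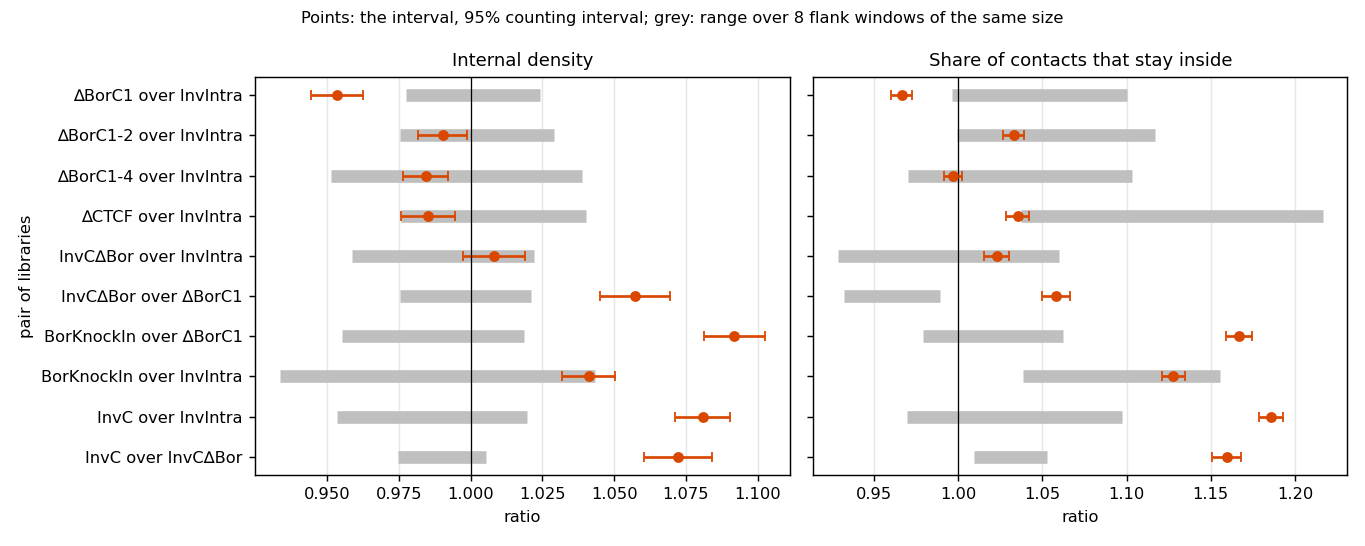
Ratios of internal density (left) and of the share of contacts that stay inside (right) for 10 pairs of libraries; points with 95% counting intervals, grey bars the range of the same ratio over 8 flank windows. InvC over InvC∆Bor (1.07 and 1.16) and BorKnockIn over ∆BorC1 (1.09 and 1.17) lie to the right of their grey bars in both measures. So do InvC over InvIntra (1.08 and 1.19) and InvC∆Bor over ∆BorC1 (1.06 in both), while BorKnockIn over InvIntra lies inside.

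The interval's contacts were also divided by where they went. Of all raw contacts at least 20 kb apart with an end in the interval, 26.7% stayed inside in ∆BorC1, 27.5% in ∆BorC1-4, 27.6% in InvIntra, 28.2% in InvC∆Bor, 28.5% in ∆BorC1-2, 28.6% in ∆CTCF, 31.1% in BorKnockIn and 32.7% in InvC. The widest counting interval, in InvC∆Bor, ran from 28.1% to 28.4%. The 6 libraries without a boundary close to Sox9 lay from 26.7% to 28.6%, and the other 2 were above all of them. The highest was 1.23-fold the lowest, against 1.08-fold to 1.22-fold in the flank windows. Among the 6, the deletion median was 1.01 of InvIntra, and 0.980 with pairs at least 50 kb apart. The ratio to InvIntra was 0.966 for ∆BorC1 (flank range 0.996 to 1.10) and 1.04 for ∆CTCF (1.04 to 1.22), both below their flank ranges, that of ∆CTCF only just. It was 1.03 for ∆BorC1-2 (0.999 to 1.12) and 0.997 for ∆BorC1-4 (0.970 to 1.10), both inside. All 4 lay below the medians of their flank windows, 1.06, 1.11, 1.08 and 1.06 in that order. The share that stayed was 1.16 (1.15 to 1.17) in InvC over InvC∆Bor, above the flank range of 1.01 to 1.05. It was 1.17 (1.16 to 1.17) in BorKnockIn over ∆BorC1, above the flank range of 0.979 to 1.06. ∆BorC1 is the lowest library here too, and libraries without a boundary next to Sox9 also exceeded their flank ranges against it. ∆BorC1-2 had 1.07 (flank range 1.00 to 1.03) and InvC∆Bor 1.06 (0.932 to 0.989). Against ∆BorC1-2, ∆BorC1-4 and ∆CTCF the ratio of BorKnockIn was 1.09, 1.13 and 1.09, above the flank range in each case. Against InvIntra the ratio of BorKnockIn was 1.13 (1.12 to 1.13), inside its flank range of 1.04 to 1.16, and that of InvC 1.19 (1.18 to 1.19), above its range of 0.970 to 1.10.

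Contacts to the left, which reach over Sox9 towards the edited interval and Kcnj2, made up 48.1% in InvC and 50.7% in BorKnockIn. They made up 54.8% in InvC∆Bor, 55.0% in InvIntra, 57.0% in ∆BorC1-2, 57.3% in ∆CTCF, 58.3% in ∆BorC1-4 and 59.8% in ∆BorC1. The 4 deletion libraries were thus the highest and the 2 with a boundary close to Sox9 the lowest. Contacts to the right, over the domain edge, made up 13.5% to 14.5% in the deletion libraries, 17.0% in InvC∆Bor, 17.4% in InvIntra, 18.2% in BorKnockIn and 19.2% in InvC. The 3 shares add to the whole, so a lower share to the left goes with higher ones elsewhere. The left-hand share covers the stretch in which the libraries differ by design.

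Seen bin by bin, BorKnockIn and InvC kept their places, while the order of the other 6 libraries varied along the interval. Here each contact counts at both of its ends, so shares per bin are above that of the interval. In the bin at 112.80 Mb, where the median was highest, 50.8% of contacts stayed inside, and in the last bin, at 113.02 Mb, 23.6%. At 112.66 Mb, next to Sox9, 35.1% (∆BorC1) to 39.0% (InvIntra) stayed inside in 6 libraries, 42.9% in BorKnockIn and 45.3% in InvC. At all 37 bins BorKnockIn and InvC were above the other 6 libraries, and InvC was above BorKnockIn.

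**Figure D5:**
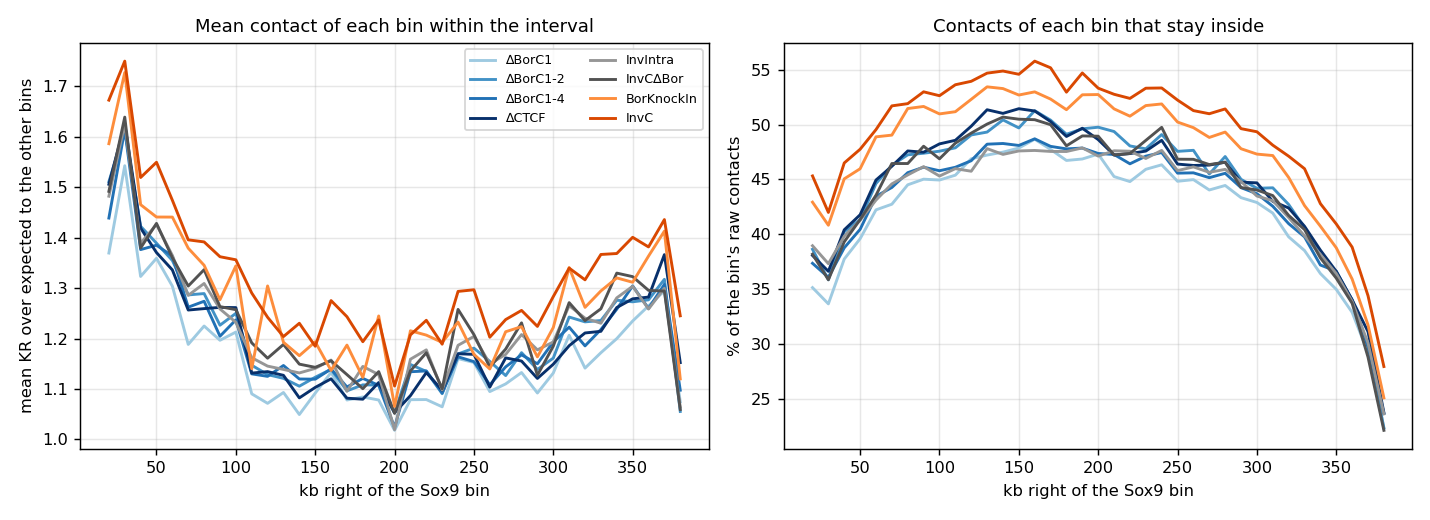
Left, mean contact over expectation of each bin with its partners in the interval; right, percent of each bin's raw contacts that stay inside; both against kb to the right of the Sox9 bin, 1 line per library. Mean contact is highest next to Sox9 (median 1.63 at 112.67 Mb) and lowest at 112.84 Mb (1.05); in the right panel InvC and BorKnockIn lie above the other 6 lines at all 37 bins.

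The pattern of the members was alike between libraries. Across the 630 pairs, which share bins and are not independent, log2 contact over expectation correlated at r of 0.820 to 0.919 between the 21 pairs of libraries without BorKnockIn, and at 0.856 to 0.912 between the deletion libraries. With BorKnockIn read 1 bin to the left r was 0.833 to 0.881, and at the same deposited coordinates 0.649 to 0.725. In the flank windows the median r was 0.465 to 0.924. The bins' raw coverage, in which the libraries also share the capture probes, was 0.848 to 1.96 of the map's mean. It correlated at 0.963 or more without BorKnockIn and at 0.813 to 0.860 with it.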

How the data were processed

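Each library had a raw and a balanced map in 10 kb bins (16 deposited maps). Per the submitters' processing notes, Bowtie2 2.2.6 and Juicer were used with mm9; read filters: not given in the sources used here. Raw values are counts of read pairs, as deposited by the authors. Balanced values (KR, Knight-Ruiz) are the authors' balanced signal, not scaled between libraries. Of them 12 were not a number, 0 in the interval.

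Expected contact was each library's mean at each distance. Shares have exact Clopper-Pearson 95% intervals, sums Poisson-based ones and ratios log-normal ones, all covering counting error only and taking read pairs as independent. Sox9 was placed in the bin 112640001 to 112650000 from general knowledge of mm9. Named places were the 5 bins at each end, the lowest inner insulation positions, the 3 highest and lowest bins, the 5 highest and lowest blocks at least 100 kb apart, and per main comparison the 3 highest and lowest block ratios with at least 100 contacts. Of the lowest ratios only the extreme one is printed. Further dips and called pairs were singled out after their values were seen, as were the flank ranges of the retained share and the comparisons of BorKnockIn with ∆BorC1-2, ∆BorC1-4 and ∆CTCF. The interval and these rules were chosen with earlier results of these data known. Calculations ran in Python 3.11.15 with scipy 1.17.1, numpy 2.4.6, matplotlib 3.10.9 and pandas 2.3.3. Density, corner, lowest inner insulation position and between over within were tested on simulated maps. The shares and the bin pair calls were not. Alternatives covered raw counts, flank expectation, distance, corner, window, block and trimming, thinned depth and the BorKnockIn shift.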

Additional observations from a re-analysis of the deposited data

How the results depend on the processing

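No paired analysis was possible because each genotype has 1 library. With raw counts, the density ratio was 0.966 for the deletion median over InvIntra (as reported 0.985), 1.03 for BorKnockIn over ∆BorC1 and 1.09 for InvC over InvC∆Bor, and the corner of BorKnockIn over ∆BorC1 was 0.974. With the flank expectation BorKnockIn had a density ratio of 1.13, with trimmed ends the deletion median had 0.976, and in a corner of 3 by 3 bins BorKnockIn had 0.989 and InvC 1.16. BorKnockIn over ∆BorC1 at the same coordinates gave a density of 1.05, a corner of 0.874 and a share of the library of 0.983. The share of the library became 0.935 (flanks plus interval as the whole), 0.898 (at least 50 kb apart) and 0.944 (thinned) for the deletion median, 1.00 (0.9999 before rounding; flanks plus interval) and 1.04 (50 kb) for BorKnockIn, and 1.17 (50 kb) for InvC. The lowest inner position was 113.00 Mb with a 30 kb window and 112.88 Mb with a 100 kb window or raw counts, and the median between over within there was 1.03, 1.24 and 1.20, against 1.08. Calls past 1.5-fold in BorKnockIn over ∆BorC1 and in InvC over InvC∆Bor fell to 0 at 2-fold and in 30 kb blocks. With raw counts InvC had 11 higher, and BorKnockIn had 14 higher and 1 lower. BorKnockIn also had 1 lower with at least 50 contacts. Chosen after seeing the data, reading BorKnockIn 2 bins to the left gave 1.12 (density), 1.17 (corner), 1.05 (share of the library) and 1.20 (share that stays inside). The share that stays inside, over all alternatives also chosen after seeing the data, was 1.18 (balanced values), 1.21 (50 kb) and 1.12 (same coordinates) for BorKnockIn over ∆BorC1, 1.19 (50 kb) for InvC over InvC∆Bor, and for the deletion median 1.01 as reported but 0.980 at 50 kb. The cause of these shifts was not tested. Of 77 alternative values 34 stayed within the counting interval or 1.5 times the count. The density and retained share ratios of BorKnockIn over ∆BorC1 and InvC over InvC∆Bor stayed above 1 in all alternatives tried. Depth limits what single bin pairs can show, the sparsest of which held 31 contacts.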
